A study of Mus musculus with 8 samples.

Results

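The genes described are Il10, the Il12 family and 5 further cytokine genes. They were measured in RNA of mouse samples labelled spleen or lymph node and knockout or wild-type for Aire. Aire encodes a regulator that lets thymic epithelium show antigens of other organs to developing T cells. Members were all probe sets that carry exactly 1 gene symbol in the platform annotation, that symbol being Il10, Il12a, Il12b, Il27, Ebi3, Il6, Il1b, Tnf, Il15 or Tgfb1. Of these 10 genes 9 were found, with 11 probe sets, among 18193 genes in all; Il27 is not analysed here. Il12b and Tgfb1 have 2 probe sets each, and each gene is represented by the one with the higher mean log2 signal unless said otherwise.

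RNA was hybridised to 8 Affymetrix expression arrays, 2 for each of 4 groups: Aire-knockout spleen, Aire-wild-type spleen, Aire-knockout lymph node and Aire-wild-type lymph node. The labels call the arrays of a group A and B and do not say what the letters mark. They give no strain, age, cell type or sorting step. They do not describe the deletion or say whether the arrays come from separate animals. The p-values below therefore reflect only how far these samples spread, which may be technical. Between the 2 knockout arrays of each tissue the spread includes a difference in sex-linked transcripts, given below, so these arrays are not repeats of the same sample. All values below are intensity signals on a linear scale, deposited by the authors and then shifted here so that every array has the same median. A signal under 9.58, the 20th percentile of all values, was raised to that floor for the tests but is printed as measured.

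Cytokines are secreted proteins through which immune cells instruct each other. The IL-12 family is built from shared chains: the product of Il12b pairs with that of Il12a to form IL-12, which drives interferon-gamma production, and with that of Il23a to form IL-23. The product of Ebi3 pairs with that of Il27 to form IL-27. IL-10 restrains macrophages and dendritic cells and limits inflammation, and transforming growth factor beta, encoded by Tgfb1, promotes regulatory T cells. Il6, Il1b and Tnf encode the classical inflammatory cytokines that macrophages and dendritic cells release on sensing microbes, and Il15 encodes a survival factor for natural killer and memory T cells.

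Promoter sequences are shown for Il12b, Il1b and Il6, because these are the 3 members with the lowest differences in the wild-type comparison of spleen with lymph node described further on. They are taken from RefSeq on GRCm38.p6, read 5′ to 3′ from 250 bases before to 50 after the gene's start. The Il12b window is chr11:44399813-44400112 on the plus strand, that of Il1b is chr2:129371090-129371389 on the minus strand and that of Il6 is chr5:30012864-30013163 on the plus strand. Capitals mark matches, on either strand, to 4 short motifs. They are TATANA, which is of the TATA box kind, GGGANTTTC, a sequence of the kind bound by NF-kappaB, TGANTCA, of the kind bound by AP-1, and the interferon-stimulated response element. The letters were chosen after these sequences had been seen, and the first motif was widened then to take any base before its last A.
Il12b promoter: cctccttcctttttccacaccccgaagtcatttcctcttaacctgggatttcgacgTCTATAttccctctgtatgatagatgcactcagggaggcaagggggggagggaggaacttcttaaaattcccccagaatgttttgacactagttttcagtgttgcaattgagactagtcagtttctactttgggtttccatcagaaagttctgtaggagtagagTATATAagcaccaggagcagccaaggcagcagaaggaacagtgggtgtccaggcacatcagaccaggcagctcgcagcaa
Il1b promoter: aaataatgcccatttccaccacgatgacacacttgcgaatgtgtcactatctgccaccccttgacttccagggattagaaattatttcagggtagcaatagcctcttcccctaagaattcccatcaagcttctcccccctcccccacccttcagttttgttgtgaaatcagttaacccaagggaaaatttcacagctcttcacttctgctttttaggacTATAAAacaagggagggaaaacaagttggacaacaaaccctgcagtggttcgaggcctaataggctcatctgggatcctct
Il6 promoter: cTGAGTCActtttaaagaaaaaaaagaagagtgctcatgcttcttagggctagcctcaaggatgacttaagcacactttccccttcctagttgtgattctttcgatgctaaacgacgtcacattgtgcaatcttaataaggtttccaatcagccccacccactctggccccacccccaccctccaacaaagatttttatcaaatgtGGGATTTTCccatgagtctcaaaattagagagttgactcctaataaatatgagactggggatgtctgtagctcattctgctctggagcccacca
The Il12b window holds TATANA at 30 bases before the start, where both strands match, and on the minus strand at 194 bases before it. The Il1b window holds it at 31 bases before the start. The Il6 window holds GGGANTTTC at 44 bases before the start and TGANTCA, which reads the same on both strands, at 249 bases before it. Of 32851 promoter windows of the same length, 24.7% hold TATANA, 1.11% GGGANTTTC, 7.81% TGANTCA and 3.44% the interferon-stimulated response element. The matches describe letters in these windows and are not binding sites shown by these data.

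The targeted gene, Aire, had signals of 1009 and 2376 in knockout spleen, against 5037 and 5204 in wild-type spleen, and of 791 and 1137 in knockout lymph node, against 3052 and 3535 in wild-type lymph node. Xist, the RNA that coats the silenced X in female cells, was at 14.6 and 23.1 on the knockout B arrays of spleen and lymph node and between 3565 and 7624 on the other 6 arrays, so sex-linked transcripts differed between arrays and not evenly between genotypes. Markers of dendritic cells summed to between 27808 and 42883 over 11 genes on every array. Of these genes Cd209a was at or under the floor on all 8 arrays. Ccr7, a receptor of migrating dendritic cells, was between 8241 and 14752. T cell markers summed to between 1604 and 5624 over 10 genes, and B cell markers to between 394 and 1966 over 7 genes. Whether the samples were whole tissue or sorted cells is not labelled and was not tested. Spic, a transcription factor of splenic red pulp macrophages, was between 1238 and 2443 in spleen and between 634 and 1544 in lymph node, so the tissues overlapped.

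Il10 was the member that set the genotypes apart. Its signals were 199 and 135 in knockout spleen, against 30.7 and 40.3 in wild-type spleen. In knockout lymph node they were 122 and 153, against 39.96 and 20.8 in wild-type lymph node. All 4 knockout arrays were above all 4 wild-type arrays, and the lowest knockout signal, 122, was well clear of the highest wild-type signal, 40.3. No wild-type array lay at the floor. Genes were tested if above 59.0, the pooled median signal, on at least 2 arrays, and Il10 met this through its 4 knockout arrays alone. A gene that enters that way has to be higher in knockout to be tested at all, so its place among the tested genes is a description and no support for the difference. Of all genes tested 1.86% entered through knockout arrays alone, and of the 8 tested members Il10 did.

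Averaged over tissues, Il10 was higher in knockout by 2.23 ± 0.30 on the log2 scale (SE), a 4.70-fold higher level, with a 95% interval of 1.51 to 2.95. The difference was 2.22 ± 0.43 (SE) in spleen and 2.24 ± 0.43 (SE) in lymph node, 4.66-fold and 4.73-fold. The test of the difference between these effects gave -0.02 with an interval of -1.46 to 1.41 (limma adjusted p = 0.999), too wide to show that the tissues respond alike. Il10 did not pass correction over the 11557 genes tested: the limma adjusted p was 0.152 averaged over tissues, 0.325 in spleen and 0.653 in lymph node. Its unadjusted limma p was 0.000159, 0.00131 and 0.00124 in the same order. With no filter on low signals the averaged difference was the same and the limma adjusted p was 0.229. When genotype was permuted inside each tissue (exact test, two-sided, 36 assignments), p was 0.0556, and no smaller p is possible with this design. Since Il10 passed the filter through knockout arrays alone, its interval and p-values among filtered genes are a description and no support for the difference.

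**Figure D1:**
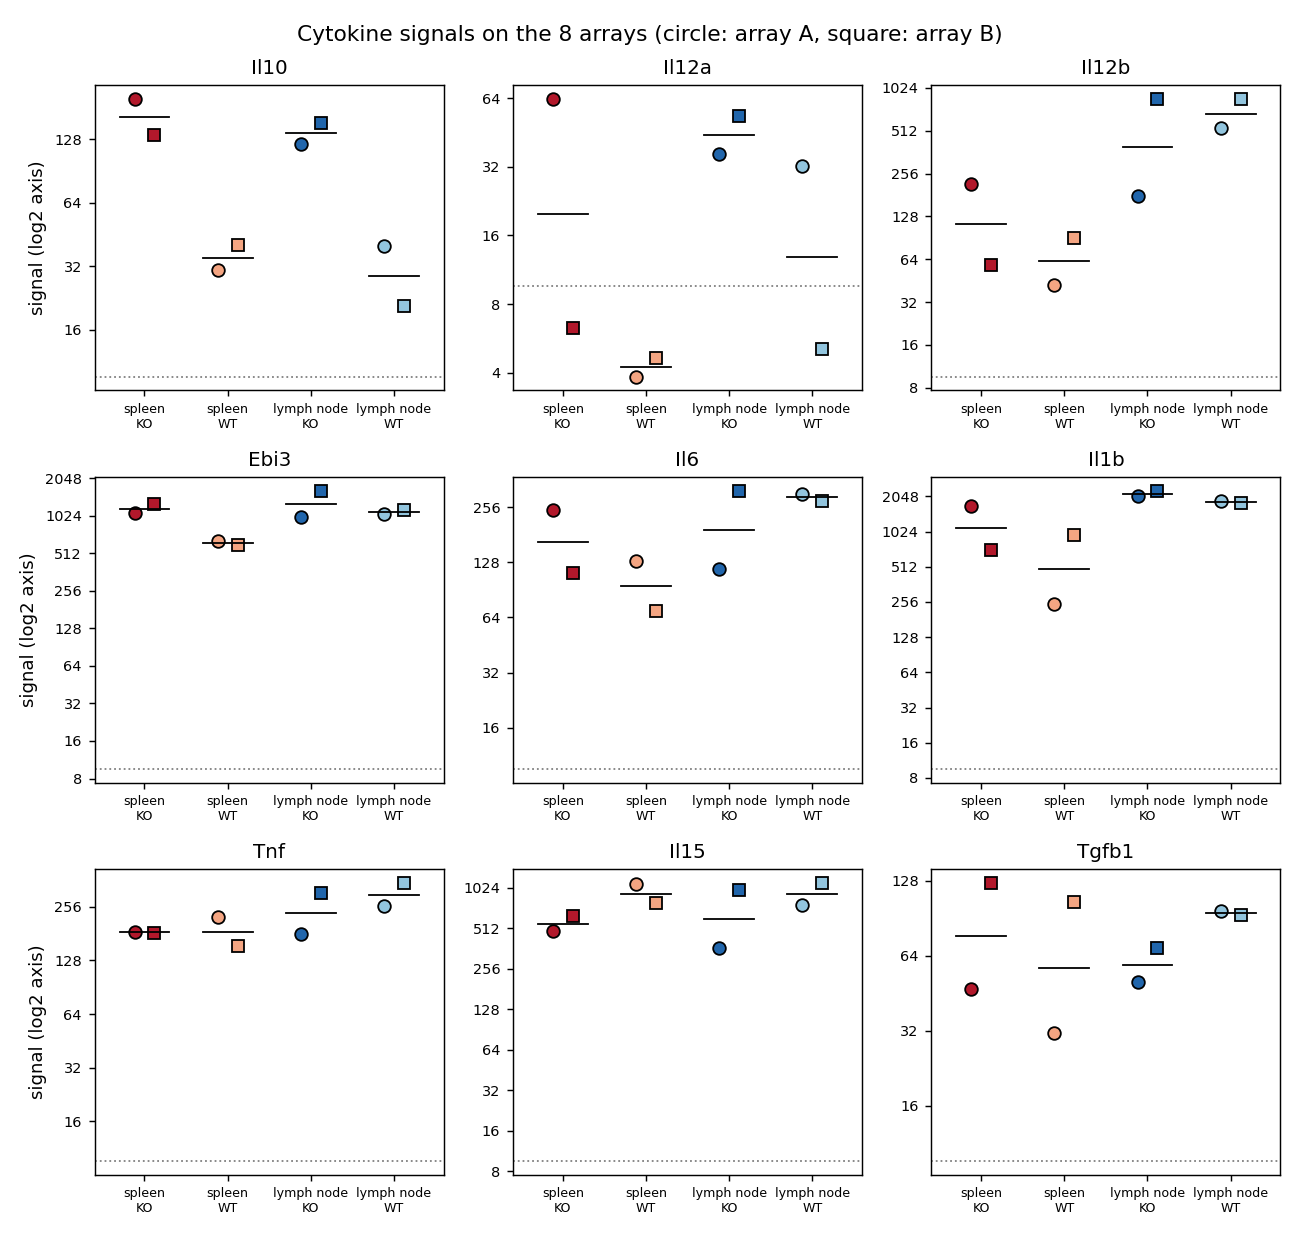
Signal of each cytokine gene on the 8 arrays, on a log2 axis, with knockout (KO) left of wild-type (WT) in each tissue. Circles are arrays A, squares arrays B, bars the geometric means of the 2 signals and the dotted line the floor of 9.58; Il10 is the gene whose 4 knockout arrays all lie above its 4 wild-type arrays.

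Of the 8 tested members, 0 passed in any knockout comparison, and by limma 0% of all genes did. At an unadjusted limma p under 0.05 there were 2 members in spleen, Il10 and Ebi3, both higher in knockout, against 8.42% of all genes in either direction and 3.86% higher. In lymph node there was 1 member, Il10, against 3.38% of all genes and 1.74% higher. Averaged over tissues Il10 was again the 1 member at that p, against 8% of all genes and 3.65% higher. As Il10 entered the test through knockout arrays alone, nothing is read from its part in these counts.

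The members' median difference was 0.83 in spleen and -0.47 in lymph node, beside medians of -0.09 and -0.03 over all genes tested. Groups did not overlap for 3 of 8 members in spleen, where this held for 37.2% of all genes, and for 3 of 8 in lymph node, where it held for 30.9%. Both shares are near the background. Of the 8 members Il10 alone had all 4 knockout arrays above all 4 wild-type arrays, which held for 1.44% of all genes; as Il10 entered the test through knockout arrays alone, nothing is read from that share. The spleen effect minus the lymph node effect had an unadjusted limma p under 0.05 for 0 of 8 members, against 3.42% of all genes.

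Levels of cell type marker lists are given beside Il10. The macrophage list, measured with 15 genes, summed to 25001 and 3998 in knockout spleen, against 4907 and 3767 in wild-type spleen, and to 18947 and 8302 in knockout lymph node, against 9021 and 3325 in wild-type lymph node. None of its genes was at or under the floor on all 8 arrays, and 12 of its 14 tested genes had a positive averaged difference. Of the 14, Adgre1, Cd5l, Fcgr1 and Siglec1 entered the test through knockout arrays alone, as did 2 of the 9 tested proliferation genes and 1 of the 4 tested monocyte and neutrophil genes. The plasma cell list, with 7 genes, summed to 16349 and 2321 in knockout spleen, against 6201 and 3408 in wild-type spleen, and to 5046 and 4409 in knockout lymph node, against 4145 and 3416 in wild-type lymph node. All 6 of its tested genes had a positive averaged difference, as had all 9 tested genes of the proliferation list. All 4 tested genes of the monocyte and neutrophil list had one too; that list summed to 20462 and 2551 in knockout spleen, against 2757 and 738 in wild-type spleen, and to 11237 and 2962 in knockout lymph node, against 7990 and 994 in wild-type lymph node. Of 9 tested dendritic cell genes, 4 had a positive averaged difference. Over all genes tested the median averaged difference was -0.06. Genes of one list can rise and fall together, so these counts are not of independent genes. The proliferation list, with 9 genes, had a mean log2 signal of 8.72 and 6.71 in knockout spleen, against 5.93 and 6.24 in wild-type spleen. In knockout lymph node it was 7.95 and 6.87, against 6.33 and 5.66 in wild-type lymph node. By that measure all 4 knockout arrays lay above all 4 wild-type arrays, but by its sums the genotypes overlapped in both tissues. The sums were 7978 and 2198 in knockout spleen, against 2278 and 1481 in wild-type spleen. In lymph node they were 3886 and 1995 in knockout, against 1997 and 1624 in wild-type.

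The list of regulatory T cells, which are known to make IL-10, summed over 6 genes to 1670 and 858 in knockout spleen, against 1248 and 1112 in wild-type spleen, and to 1363 and 2692 in knockout lymph node, against 1174 and 1843 in wild-type lymph node. Of its 4 tested genes 3 had a positive averaged difference, with a median of 0.98, and 4 a positive one in lymph node. Its sums overlapped between genotypes in both tissues, while its mean log2 signal in lymph node was 7.18 and 7.501 in knockout, against 6.16 and 6.33 in wild-type. The epithelial list ran the other way: it summed to 1596 and 3862 in knockout spleen, against 3337 and 4134 in wild-type spleen, and to 1062 and 1529 in knockout lymph node, against 2855 and 2762 in wild-type lymph node. Of its 4 tested genes 1 had a positive averaged difference, with a median of -0.86. Median averaged differences of the T cell, B cell, natural killer cell and stromal lists were -0.07, -0.17, 0.08 and 0.27.

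The sums of the macrophage list were highest on the 2 knockout A arrays. On the knockout B arrays its mean log2 signal was 7.05 in spleen and 7.54 in lymph node, above both wild-type arrays of the tissue. The Il10 signal was 199 and 122 on the knockout A arrays and 135 and 153 on the knockout B arrays. Without both knockout A arrays the averaged Il10 difference was 2.17. The part of these cells in the Il10 difference was not tested. In RNA from many cells, a change in the number of cells of a type cannot be told from a change in RNA per cell.

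**Figure D2:**
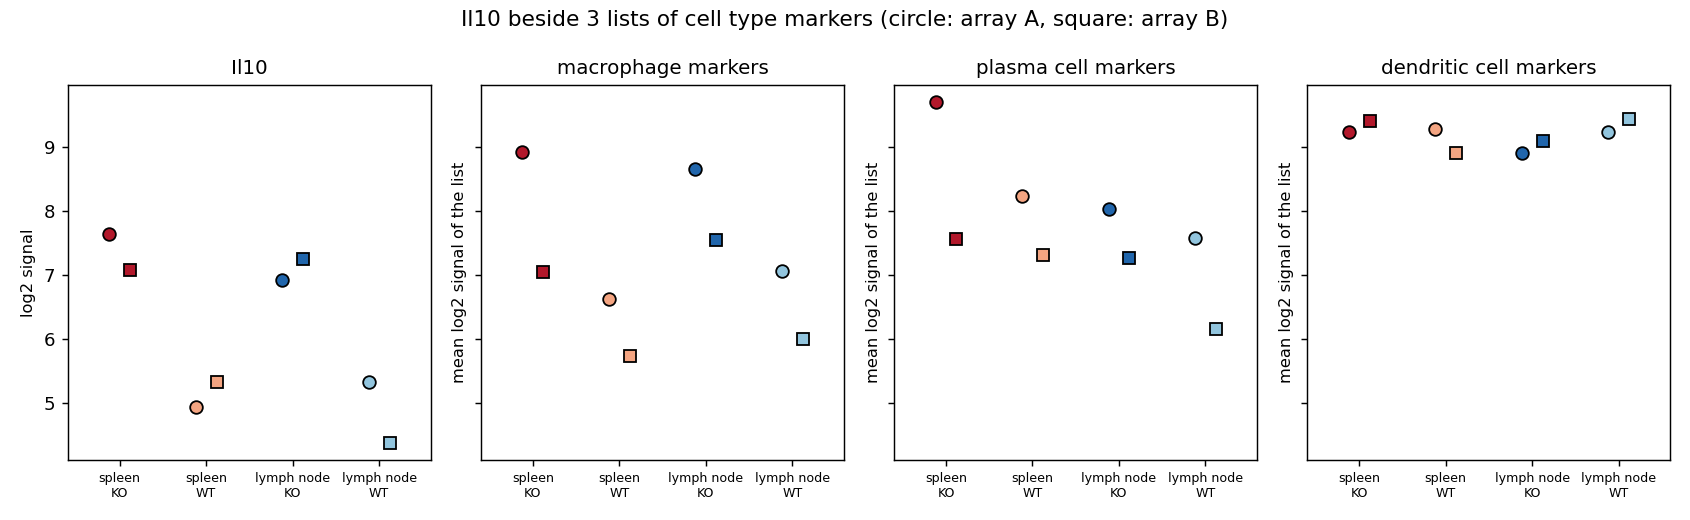
Il10 (log2 signal) beside the mean log2 signal of the macrophage, plasma cell and dendritic cell marker lists on each array, on a shared axis, with knockout (KO) left of wild-type (WT). Circles are arrays A and squares arrays B. Il10 separates the genotypes over all 8 arrays. By this mean the macrophage list has both knockout arrays above both wild-type arrays within each tissue, whereas the plasma cell list overlaps. Both lists are highest on the knockout A array of each tissue. By its sums, not shown here, the macrophage list overlaps between genotypes in both tissues. Its genes Adgre1, Cd5l, Fcgr1 and Siglec1 entered the test through knockout arrays alone.

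Among the subunits of the IL-12 family, Ebi3 had signals of 1074 and 1267 in knockout spleen, against 639 and 600 in wild-type spleen. In lymph node it had 993 and 1614 in knockout, against 1055 and 1130 in wild-type. The genotypes were apart in spleen and overlapped in lymph node. The spleen difference was 0.91 ± 0.35 (SE), 1.88-fold, and the lymph node difference 0.21 ± 0.35 (SE); neither passed (limma adjusted p = 0.560 in spleen and 0.9998 in lymph node).

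Il12b, the shared chain of IL-12 and IL-23, had signals of 218 and 58.0 in knockout spleen, against 42.3 and 90.1 in wild-type spleen, and of 178 and 859 in knockout lymph node, against 537 and 854 in wild-type lymph node. The genotypes overlapped in both tissues. Its knockout difference was 0.86 ± 0.91 (SE) in spleen and -0.79 ± 0.91 (SE) in lymph node, and the knockout arrays of one group differed from each other by more than the group means did. The difference between these effects was 1.65 with an interval of -1.39 to 4.70 (limma adjusted p = 0.999).

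Il12a, which encodes the partner chain of Il12b in IL-12, was above the pooled median signal of 59.0 on 1 array and so was not among the genes tested. It had signals of 63.5 and 6.27 in knockout spleen, against 3.85 and 4.65 in wild-type spleen, and of 36.6 and 53.5 in knockout lymph node, against 32.3 and 5.09 in wild-type lymph node. Of these, 4 were under the floor: both wild-type spleen arrays, knockout spleen array B and wild-type lymph node array B. At this signal no fold is given.

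Of the inflammatory cytokines, Il1b had signals of 1703 and 710 in knockout spleen, against 245 and 963 in wild-type spleen. In lymph node it had 2050 and 2278 in knockout, against 1864 and 1787 in wild-type. The wild-type spleen arrays bracketed knockout array B, while in lymph node the genotypes did not overlap but lay close. The knockout difference was 1.18 ± 0.69 (SE) in spleen and 0.24 ± 0.69 (SE) in lymph node; without wild-type spleen array A the spleen value was 0.19.

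Il6 had signals of 246 and 112 in knockout spleen, against 130 and 69.5 in wild-type spleen, and of 117 and 313 in knockout lymph node, against 303 and 275 in wild-type lymph node. Tnf had 186 and 182 in knockout spleen, against 224 and 154 in wild-type spleen, and 180 and 307 in knockout lymph node, against 258 and 348 in wild-type lymph node. For both genes the genotypes overlapped in each tissue. The averaged knockout difference was 0.10 with an interval of -0.92 to 1.13 for Il6 and -0.18 with an interval of -0.84 to 0.48 for Tnf.

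Il15 was the member with the lowest averaged value, -0.67 ± 0.37 (SE), and an interval of -1.55 to 0.20 (limma adjusted p = 0.696). Its signals were 490 and 627 in knockout spleen, against 1087 and 787 in wild-type spleen, and 366 and 990 in knockout lymph node, against 762.2 and 1108 in wild-type lymph node. Both knockout spleen arrays lay under both wild-type spleen arrays, and the lymph node arrays overlapped.

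The 2 probe sets of Tgfb1 gave different pictures. The brighter had signals of 47.1 and 125 in knockout spleen, against 31.2 and 105 in wild-type spleen, and of 50.3 and 68.5 in knockout lymph node, against 97.1 and 93.4 in wild-type lymph node. The dimmer had signals of 105 and 92.1 in knockout spleen, against 9.08 and 27.9 in wild-type spleen, and of 80.1 and 35.6 in knockout lymph node, against 81.3 and 36.2 in wild-type lymph node. In spleen the genotypes overlapped by the brighter probe set and were apart by the dimmer, for which wild-type array A lay under the floor. The averaged knockout difference was -0.14 ± 0.48 (SE) by the brighter probe set and 1.28 ± 0.52 (SE) by the dimmer, which was fitted with all probe sets; its spleen value there was 2.59 ± 0.73 (SE), with limma adjusted p = 0.502. No direction is given for Tgfb1.

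**Figure D3:**
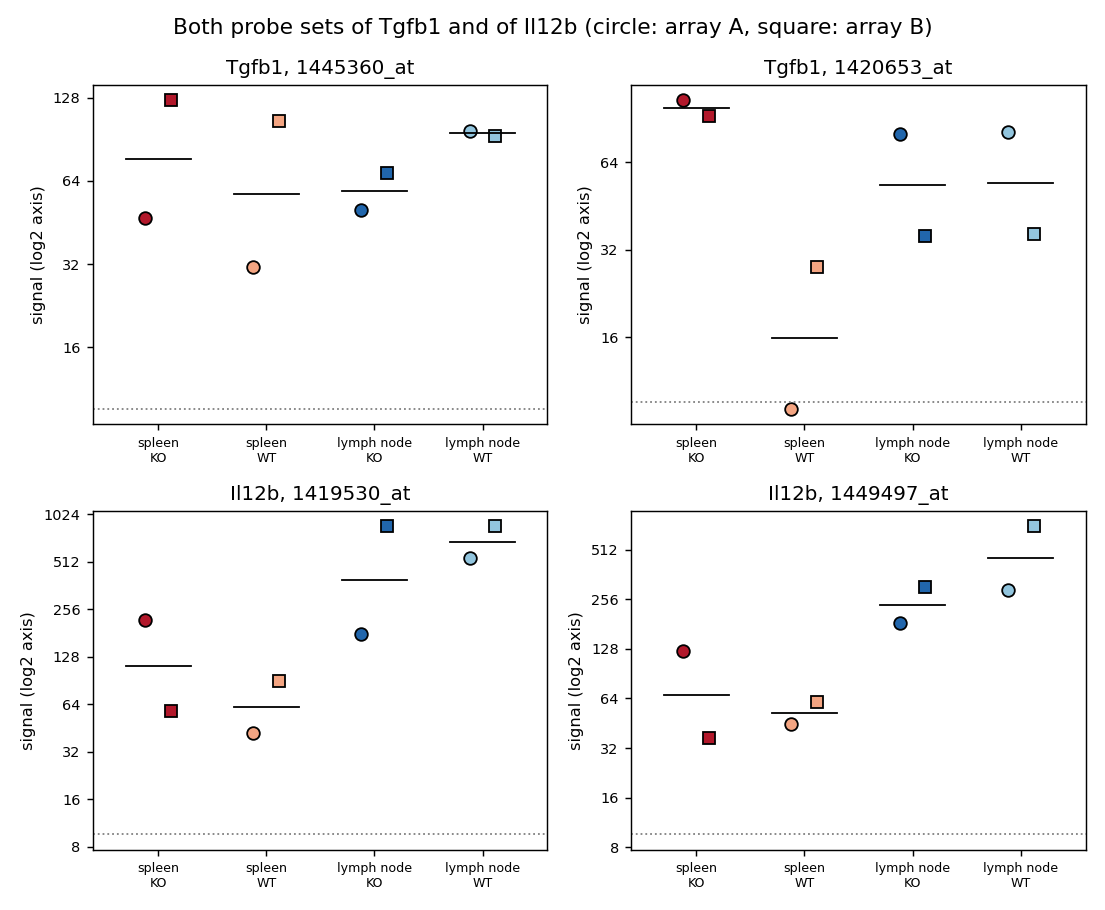
Signals of both probe sets of Tgfb1 (top) and of Il12b (bottom) on the 8 arrays, on log2 axes, with knockout (KO) left of wild-type (WT); circles are arrays A, squares arrays B, bars geometric means and the dotted line the floor of 9.58. The Tgfb1 probe sets differ in spleen, where the dimmer one separates the genotypes and the brighter does not, whereas both Il12b probe sets have lower signals in spleen than in wild-type lymph node.

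**Figure D4:**
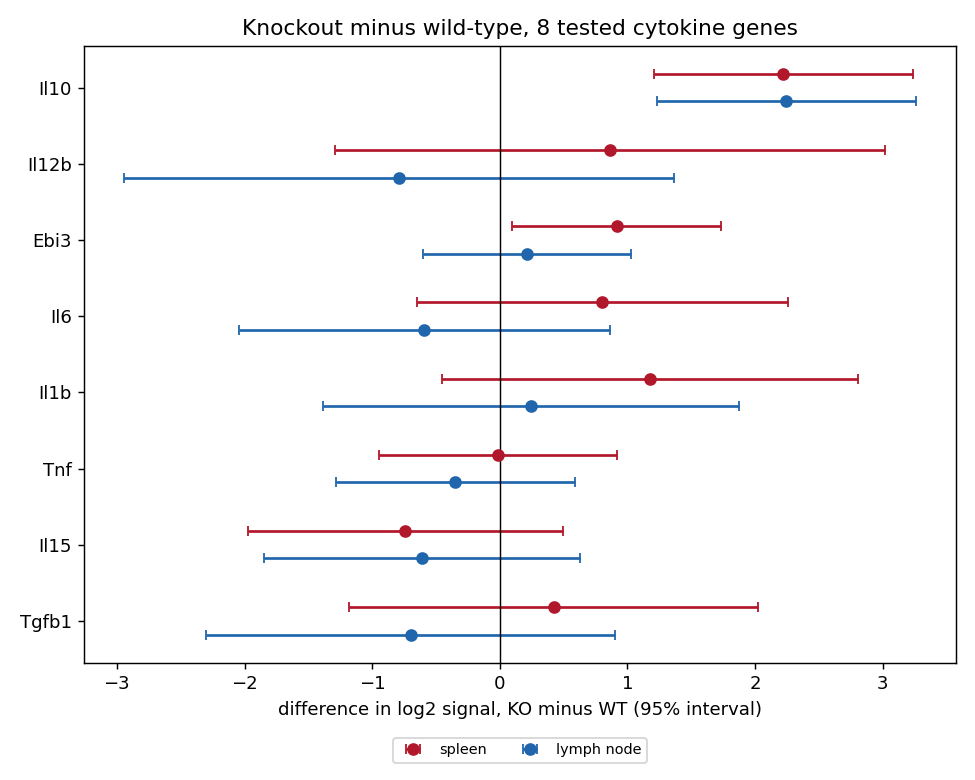
Knockout minus wild-type difference in log2 signal for the 8 tested cytokine genes, with 95% intervals from limma, in spleen and in lymph node. The intervals of Il10, which entered the test through knockout arrays alone, lie above 0 in both tissues. That of Ebi3 lies above 0 in spleen, and the others include 0.

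Some arrays were often the extreme ones for these genes, a pattern chosen after its values were seen. Knockout lymph node array A was the lowest of the 4 lymph node arrays for 6 of 8 tested members, namely Il12b, Ebi3, Il6, Tnf, Il15 and Tgfb1, and for 30.4% of all genes tested. Without it the lymph node difference was 0.34 for Il12b, 0.12 for Il6, 0.04 for Tnf and 0.11 for Il15, where all 4 had been negative. Knockout spleen array A was the highest of the 4 spleen arrays for 4 of 8 tested members, namely Il10, Il12b, Il6 and Il1b, and for 31.7% of all genes tested. Without it the spleen difference was 1.94 for Il10, -0.09 for Il12b, 0.23 for Il6 and 0.55 for Il1b. Knockout lymph node array B was the highest for 5 of 8, namely Il10, Il12b, Ebi3, Il6 and Il1b, and for 21.2% of all genes tested. Wild-type spleen array A was the lowest of the 4 spleen arrays for 4 of 8 tested members. These were Il10, Il12b, Il1b and Tgfb1, and 21.3% of all genes tested were lowest on it.

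The tissues were compared next. In the wild-type arrays, spleen had lower signals than lymph node for 5 of 8 tested members without overlap, Il12b, Ebi3, Il6, Il1b and Tnf, where 16.1% of all genes were lower without overlap. At an unadjusted limma p under 0.05 there were 4 members, Il12b, Ebi3, Il6 and Il1b, all lower in spleen, against 8.77% of all genes in either direction and 3.76% lower. None passed correction (lowest limma adjusted p = 0.382), and 0.00865% of all genes did.

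For Il12b the wild-type signals were 42.3 and 90.1 in spleen, against 537 and 854 in lymph node. The difference was -3.46 ± 0.91 (SE), 10.97-fold lower in spleen, with an interval of -5.61 to -1.30 (limma adjusted p = 0.382). The second probe set gave -3.12 ± 0.75 (SE), with signals of 44.5 and 61.1 in wild-type spleen, against 289 and 710 in wild-type lymph node. Averaged over genotypes Il12b was lower in spleen by -2.63 ± 0.64 (SE), 6.18-fold, with an unadjusted limma p of 0.0047 and an adjusted p of 0.276. Knockout spleen array A, at 218, was above knockout lymph node array A, at 178, so the tissues overlapped in the knockout arrays by this probe set. By the second probe set they did not: its signals were 124 and 36.8 in knockout spleen, against 183 and 302 in knockout lymph node.

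Il1b was the member whose tissues did not overlap over all 8 arrays, with spleen lower, which held for 1.9% of all genes. Its spleen signals reached 1703, against a lowest lymph node signal of 1787. The difference averaged over genotypes was -1.44 ± 0.49 (SE), 2.72-fold lower in spleen, with an interval of -2.60 to -0.29 (limma adjusted p = 0.380). In wild-type arrays it was -1.91 ± 0.69 (SE). Without wild-type spleen array A the averaged difference was -0.95. When tissue was permuted inside each genotype (exact test, two-sided, 36 assignments), p was 0.0556 for Il1b, the lower bound of this design, and 0.111 for Il12b.

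The wild-type difference was -1.60 ± 0.61 (SE) for Il6 and -0.82 ± 0.35 (SE) for Ebi3. Averaged over genotypes these differences were -0.91 ± 0.43 (SE) and -0.47 ± 0.24 (SE). Il10 did not follow that direction: its averaged tissue difference was 0.28 ± 0.30 (SE), with an interval of -0.44 to 0.99. Over the 8 tested members the median averaged difference was -0.49, 7 of 8 being negative, beside a median of 0.06 over all genes tested. Of these members 2, Il12b and Il1b, had an unadjusted limma p under 0.05, against 10.7% of all genes in either direction and 4.52% lower. None passed correction, as for 0% of all genes.

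**Figure D5:**
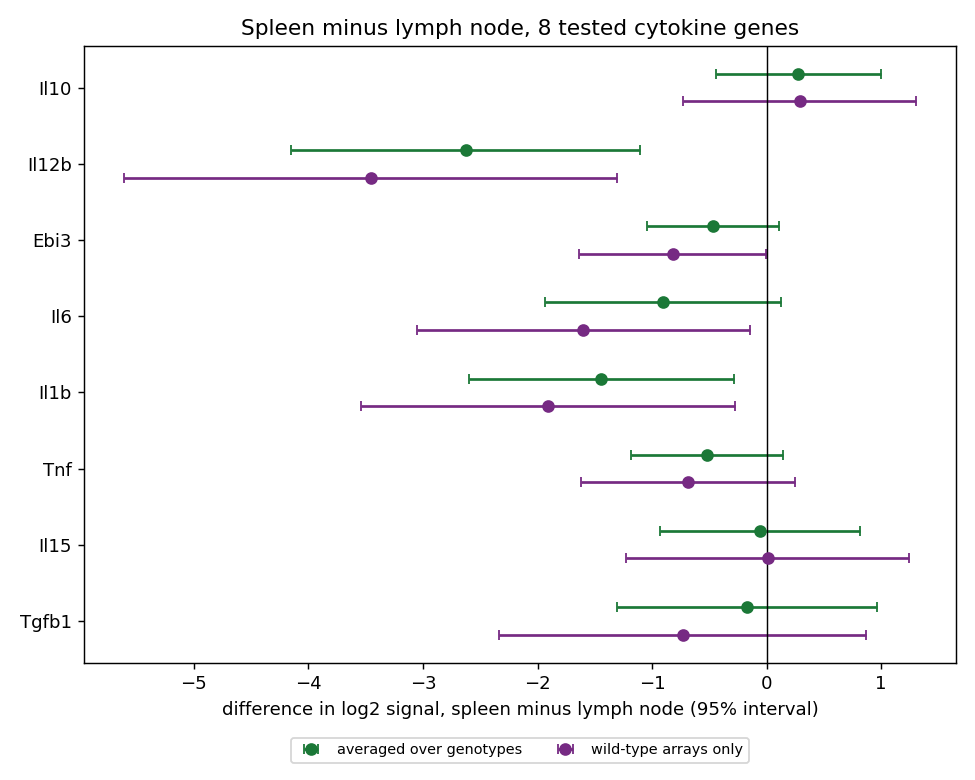
Spleen minus lymph node difference in log2 signal for the 8 tested cytokine genes, with 95% intervals from limma, averaged over genotypes and in the wild-type arrays alone. Il12b has the lowest values, -2.63 and -3.46, and the intervals of Il12b and Il1b lie under 0 in both.

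Receptors, related ligands, processing factors, signalling proteins and feedback targets of these cytokines were followed as 5 lists. In none of the 6 comparisons did a tested gene of any list pass correction. For the averaged knockout effect, 1 of 15 tested receptor genes had an unadjusted limma p under 0.05: Il12rb2, a chain of the IL-12 receptor, at -0.89 ± 0.35 (SE). Its signals were 399 and 513 in knockout spleen, against 1033 and 598 in wild-type spleen, and 94.5 and 111 in knockout lymph node, against 131 and 314 in wild-type lymph node. The list's median was 0.10, beside -0.06 over all genes, of which 8% had such a p and 4.34% were lower with it. Tgfbr1, a signalling receptor for transforming growth factor beta, was at 0.54 ± 0.35 (SE), Il27ra, a chain of the IL-27 receptor, at 0.63 ± 0.46 (SE), and Tnfrsf1b, a receptor for tumour necrosis factor, at -0.30 ± 0.25 (SE).

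Among 13 tested related ligands and antagonists, 1 had a positive averaged difference and 3 a negative one at that p, where 3.65% of all genes were higher and 4.34% lower. The list's median was -0.14. Il1rn, the antagonist of the interleukin-1 receptor, was at 0.93 ± 0.27 (SE), with 581.6 and 442 in knockout spleen, against 293 and 233 in wild-type spleen, and 612 and 509 in knockout lymph node, against 226 and 393 in wild-type lymph node. Il23a, the partner of Il12b in IL-23, was at -1.45 ± 0.43 (SE), with 22.4 and 77.9 in knockout spleen, against 99.96 and 113 in wild-type spleen, and 31.6 and 59.8 in knockout lymph node, against 140 and 117 in wild-type lymph node. For both genes the genotypes were apart in each tissue. Taken by single tissue, this held for 37.2% of all genes tested in spleen and for 30.9% in lymph node. Over both tissues, Il1rn had all 4 knockout arrays above all 4 wild-type arrays, which held for 1.44% of all genes. Il23a had all 4 knockout arrays under all 4 wild-type arrays, for which no share of all genes is given. Neither gene entered the test through knockout arrays alone. Both were named for their small averaged knockout p, so these separations are a description. Lif, an IL-6 family cytokine, was at -1.19 ± 0.41 (SE) and Ltb, a lymphotoxin chain, at -0.80 ± 0.33 (SE). The limma adjusted p was 0.461, 0.471, 0.547 and 0.617 for the 4 genes.

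In the signalling list 2 of 22 tested genes had a positive averaged difference at that p, against 3.65% of all genes, and none a negative one. The list's median was -0.07, beside -0.06 over all genes. Batf, a transcription factor of the AP-1 family, was at 2.70 ± 0.57 (SE), with limma adjusted p = 0.309. Its signals were 223 and 91.0 in knockout spleen, against 28.8 and 6.12 in wild-type spleen, and 141 and 143 in knockout lymph node, against 14.9 and 56.2 in wild-type lymph node; 1 wild-type array lay under the floor. All 4 knockout arrays were above all 4 wild-type arrays. Batf, too, exceeded 59.0 on its knockout arrays alone, so that separation and its part in the count are a description. Prdm1, a repressor active in plasma cells and effector T cells, was at 1.13 ± 0.44 (SE). Nfil3 was at -0.50 ± 0.22 (SE) and Myd88, an adaptor of interleukin-1 and Toll-like receptors, at 1.57 ± 0.86 (SE), both above that p; Myd88 exceeded 59.0 on 3 knockout arrays and no wild-type array.

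Of the 12 tested feedback targets, 10 had a negative averaged difference, with a median of -0.24, beside -0.06 over all genes, and 1 was positive at an unadjusted limma p under 0.05, against 3.65% of all genes. That gene was Socs3, a suppressor of IL-6 receptor signalling and a target of STAT3, at 1.19 ± 0.43 (SE). Its signals were 539 and 227 in knockout spleen, against 88.7 and 192 in wild-type spleen, and 726 and 413 in knockout lymph node, against 371 and 212 in wild-type lymph node. Nr4a1 was at -0.52, Socs2 at -0.38 and Dusp1 at -0.32. In the processing list, with a median of -0.14, 0 of 11 tested genes had a p under 0.05, against 8% of all genes; Nlrp3, the inflammasome sensor upstream of interleukin-1 beta release, was at 1.41 ± 0.69 (SE), Casp1 at 0.35, Ltbp1 at -0.43 and Itgb8 at -0.56.

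In the tissue comparison averaged over genotypes, 5 of 15 tested receptor genes had an unadjusted limma p under 0.05, 1 higher and 4 lower in spleen, against 10.7% of all genes, 6.23% higher and 4.52% lower. The list's median was -0.33, beside 0.06 over all genes. Il12rb2 was higher in spleen by 2.05 ± 0.35 (SE), opposite in sign to Il12b, with limma adjusted p = 0.175. The other named receptors, chosen after their values were seen, were Il1r2, a decoy receptor for interleukin-1, at -3.01 ± 0.92 (SE) and Il10ra, the ligand-binding chain of the IL-10 receptor, at -1.45 ± 0.45 (SE). Il10ra had signals of 292 and 73.0 in knockout spleen and 94.8 and 80.2 in wild-type spleen, against 273 and 412 in knockout lymph node and 290 and 278 in wild-type lymph node.

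The genes whose pattern over the 8 arrays was most like that of a member were found by the mean absolute difference between log2 values centred on each gene's mean. For Il10 they were Myh7 at 0.34, Cdpf1 at 0.35 and Ifi47, an interferon-inducible GTPase, at 0.36. For Il12b they were Car6 at 0.40, Gm2115 at 0.47 and Inhbb at 0.49. For Il1b they were Ptpro at 0.21, Tmtc2 at 0.27 and BC028528 at 0.28, and for Il6 they were Tchh at 0.15, Taf8 at 0.18 and Mylpf at 0.25. For Tgfb1, by its brighter probe set, they were Pcmtd2 at 0.16, Zfp513 at 0.18 and Tnrc18 at 0.23. These values describe 8 arrays and carry no test.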

How the data were processed

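The intensity values deposited by the authors give every probe set a linear signal on each of 8 arrays. MAS5 is the tool named per the submitters' processing notes, without a version, and the 2% trimmed mean of each array was 250.0. Of 45101 probe sets, 64 controls were left out. Of the rest 34945 carried 1 gene symbol, 932 several and 9160 none, and symbols were updated through Entrez identifiers (18033 of 18195 matched). Array medians spanned 0.28 on the log2 scale, above the tolerance of 0.2, so arrays were shifted to a common median. Values were floored at 9.58, the 20th percentile, and taken to log2. Each gene was its probe set with the highest mean log2 signal, and 11557 genes were tested, those that exceeded 59.0, the median of all signals, on 2 or more arrays.

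A limma 3.58.1 model (R 4.3.3) with a mean for each of 4 groups was fitted to all 8 arrays, with 4 residual degrees of freedom, and contrasts were adjusted by Benjamini-Hochberg over all genes tested and called at 0.05. Single members were also tested by exact permutation. The code was checked on simulated data. All members were named, as were the 4 genes of each pathway list with the smallest averaged knockout p; nearest genes were named for members ranging over 2 on the log2 scale. Members and lists were chosen with earlier results of these data known. The number of arrays limits the precision. The alternatives tried were quantile or no scaling, other floors and filters, other uses of probe sets, another variance prior, Y-linked genes or the letter as a term, and arrays left out.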

Additional observations from a re-analysis of the deposited data

How the results depend on the processing

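Of 1020 values of single members under 21 alternatives, 957 kept their direction, 63 turned, and 0 passed the adjusted threshold; the number of members called was 0 of 8 throughout. The averaged Il10 difference stayed between 1.93 and 2.47, with limma adjusted p between 0.085, with the floor at the 40th percentile, and 0.535, without knockout lymph node array A. The letters were not used to pair the samples. Of 6 same-letter correlations 3 were over 0.1 (0.0554 to 0.306), which cannot show whether the letters mark a shared source. In the knockout arrays the letter went with the Xist signal in both tissues. With the replicate block, the averaged Il10 difference was 2.23 with limma adjusted p = 0.143, and no member's call changed. A trended robust prior called 48 of all genes for the averaged tissue difference, 10 for that in wild-type and 6 for the averaged knockout difference, where 0, 1 and 0 were called.

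The cause of the other values that turned was not tested. With quantile normalization the knockout difference of Tnf in spleen was 0.0539 and the wild-type tissue difference of Il15 was -0.15. Without median scaling these were 0.10 and -0.12, and the Il10 difference between tissue effects was 0.0486. That Il10 value was 0.0412 with the floor added to each value and 0.26 with the floor at the 40th percentile. The averaged knockout difference was -0.29 for Il12b and 1.28 for Tgfb1 by the dimmer probe sets, and -0.13 and 0.57 by the mean of probe sets. With Y-linked genes as a covariate the knockout difference was -0.0180 for Tgfb1 in spleen, -0.0438 for Il1b in lymph node and -0.42 for Il12b averaged. Without both knockout A arrays it was -0.0900 for Il12b in spleen; 0.34 for Il12b, 0.12 for Il6, 0.0370 for Tnf and 0.11 for Il15 in lymph node; and 0.00460 for Tnf and 0.33 for Tgfb1 averaged. Also without them, the difference between tissue effects was -0.43 for Il12b and -0.0647 for Tnf, and the averaged tissue difference of Tgfb1 was 0.0697.

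With each array left out in turn, the knockout difference in spleen ran between -0.0900 and 1.82 for Il12b, -0.28 and 0.26 for Tnf, and -0.45 and 1.30 for Tgfb1. In lymph node it ran between -1.92 and 0.34 for Il12b, -0.14 and 0.56 for Ebi3, -1.30 and 0.12 for Il6, -0.73 and 0.0370 for Tnf, and -1.33 and 0.11 for Il15. Averaged over tissues it ran between -0.53 and 0.60 for Il12b, -0.25 and 0.46 for Il6, -0.37 and 0.0115 for Tnf, and -0.58 and 0.30 for Tgfb1. The difference between tissue effects ran between -0.49 and 0.45 for Il10, -0.0524 and 1.92 for Il1b, -0.0509 and 0.72 for Tnf, and -0.85 and 0.59 for Il15. The averaged tissue difference ran between -0.41 and 0.30 for Il15, and -0.61 and 0.27 for Tgfb1. That in wild-type ran between -0.19 and 0.76 for Il10, -0.26 and 0.28 for Il15, and -1.61 and 0.15 for Tgfb1.

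Each group held 2 arrays, which limits every comparison. A signal near the floor of 9.58, as for Il12a, cannot be told from background.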
